A study of Mus musculus with 42 samples.

Results

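The genes described here carry the hormone hepcidin and the proteins that sense, transport, store and export iron. They were picked because *Hamp2*, a mouse hepcidin gene, was lower in *Akt1*+/- liver, and the list holds *Hamp2*, *Tfrc*, *Tfr2*, *Trf*, *Fth1*, *Ftl1*, *Slc40a1* and *Hfe*. Probes were taken as the non-control probes that carry these gene names on the array. This found 7 of the 8 genes by name and *Tfr2* through its accession, since the array calls it *Trfr2*, and gave 9 probes in all, 2 of them for *Hfe*. The 8 genes stood among 19862 genes tested over all arrays.

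RNA of liver, quadriceps muscle and visceral fat was measured on 42 one-colour arrays, with 14 arrays per tissue. All came from female C57BL/6 mice, either wild-type (Wt) or *Akt1*+/-, which carry 1 working copy of the kinase gene *Akt1*, a part of the insulin signalling pathway. Each tissue had 3 arrays per genotype at 8 weeks of age and 4 per genotype at 35 weeks by the labels, while the methods of the study give a slightly greater older age and fewer mice per group. The deficiency is inherited and not limited to a cell type, the Wt mice were littermates, and nothing in the labels tells which arrays came from the same mouse, so that p values measure the spread between these samples.

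Hepcidin is a peptide that hepatocytes release into the blood when iron stores or inflammation rise. It binds ferroportin, the iron exporter encoded by *Slc40a1*, and causes its breakdown, which keeps iron inside macrophages, hepatocytes and gut cells. Transferrin (*Trf*) carries iron in plasma, transferrin receptor 1 (*Tfrc*) takes it up, and transferrin receptor 2 (*Tfr2*) with HFE (*Hfe*) reports iron saturation to the hepcidin gene in hepatocytes. The ferritin heavy and light chains (*Fth1*, *Ftl1*) form the shell that stores iron in the cytosol. The mouse has a pair of hepcidin genes, *Hamp* and *Hamp2*, which lie next to each other on chromosome 7. BMP signals through SMAD proteins and interleukin 6 signals through STAT3 are known to switch on *Hamp*.

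The 150 bases before the start of each hepcidin gene are shown because the pair are near-identical in sequence but had different levels across the liver groups. They were taken from RefSeq, assembly GRCm38.p6, on the minus strand, for *Hamp* from chr7:30944030-30944179 and for *Hamp2* from chr7:30924182-30924331. Capitals mark the core letters of the BMP-responsive element, GGCGCC, or the letters aligned with it, and the outer letters of the STAT motif TTCNNNGAA.
Hamp: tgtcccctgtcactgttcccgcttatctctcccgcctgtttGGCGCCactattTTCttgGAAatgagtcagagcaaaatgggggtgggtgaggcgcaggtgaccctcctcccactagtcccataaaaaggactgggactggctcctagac
Hamp2: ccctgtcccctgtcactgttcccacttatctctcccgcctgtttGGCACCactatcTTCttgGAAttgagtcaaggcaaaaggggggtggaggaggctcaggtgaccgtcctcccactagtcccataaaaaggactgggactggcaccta
Over the 250 bases before each start, 227 of 247 aligned bases were identical, or 91.9%. The aligned letters of the BMP element differed by G4A, counted from 1 at the 5′ end of the 6 letters with the base of *Hamp* first. They began 109 bases before the start of *Hamp* and 106 bases before that of *Hamp2*, and the STAT letters began 97 and 94 bases before the starts. On either strand, GGCGCC was found in the 250 bases of 9.59% of 32851 mouse promoters and TTCNNNGAA in 7.02%. Of the 6 listed genes with a promoter in the table, *Tfrc* also held GGCGCC, in 1 of its 2 promoters, 89 bases before that start. A match of letters describes the sequence and shows no binding.

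The values are log2 intensities relative to the 75th percentile of each array, here called the log2 level, so that a difference of 1 is a doubling of the signal. This 75th percentile lay between an intensity of 274 and 795, and 56.5 to 68.6% of probes were well above background. *Akt1* was lower in every *Akt1*+/- array than in every Wt array of the same tissue and age on both of its probes, at 0.629 times the Wt level in liver, 0.671 times in muscle (limma, adjusted p = 0.0747) and 0.682 times in fat (adjusted p = 0.00649). The summed log2 level of 5 hepatocyte markers was 10.35 to 10.89 in liver, that of 6 muscle fibre markers was 11.77 to 12.24 in muscle and that of 6 adipocyte markers was 9.75 to 10.35 in fat, so that each tissue carried its own markers. Some libraries stood apart at 8 weeks. The hepatocyte sum was 5.38 in *Akt1*+/- muscle replicate 3 and 0.21 to 2.59 on the other muscle arrays, the muscle fibre sum was 1.0 in *Akt1*+/- liver replicate 1 and −3.24 to −0.72 on the other livers, and the erythroid sum was 3.51 in Wt liver replicate 2 and 4.82 to 6.59 on the other livers. In fat the hepatocyte sum was 6.34 to 7.05 and was led by *Cyp2e1*, at a mean log2 level of 6.61 with *Alb* next at 0.43. The skeletal muscle sum in fat was 3.94 to 6.65 and was led by *Acta1*, at 5.36 with *Mb* next at −3.06. Each of the 2 ages was scanned on days of its own, so age and scan day cannot be told apart in any tissue, and nor can genotype and slide at 35 weeks or in liver at 8 weeks. In fat at 35 weeks genotype cannot be told apart from scan day either. In fat at 8 weeks, Wt replicates 1 and 2 were scanned on another day than the *Akt1*+/- arrays.

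In liver, *Hamp2* was lower in *Akt1*+/- mice at both ages. At 8 weeks its log2 level was 7.17, 7.74 and 7.30 in Wt livers and 5.30, 5.63 and 4.53 in *Akt1*+/- livers. At 35 weeks it was 6.34, 6.05, 5.22 and 5.81 in Wt and 4.85, 5.48, 4.68 and 4.13 in *Akt1*+/- livers. The genotypes did not overlap at 8 weeks, while at 35 weeks the highest *Akt1*+/- liver lay above the lowest Wt liver. The share of all genes whose arrays were separated in this way was not counted, for this or any other separation given here. Group means were 7.40 ± 0.30 (SD, n = 3) against 5.15 ± 0.56 (n = 3) at 8 weeks, which is 0.210 times the Wt level, and 5.86 ± 0.47 (n = 4) against 4.78 ± 0.56 (n = 4) at 35 weeks, or 0.476 times. Averaged over both ages the difference was −1.66 on the log2 scale. These values chose the genes, so they are a description with no test, and so are all genotype values of liver below. In a piece of tissue, fewer cells of a type and less RNA per cell cannot be told apart.

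**Figure D1:**
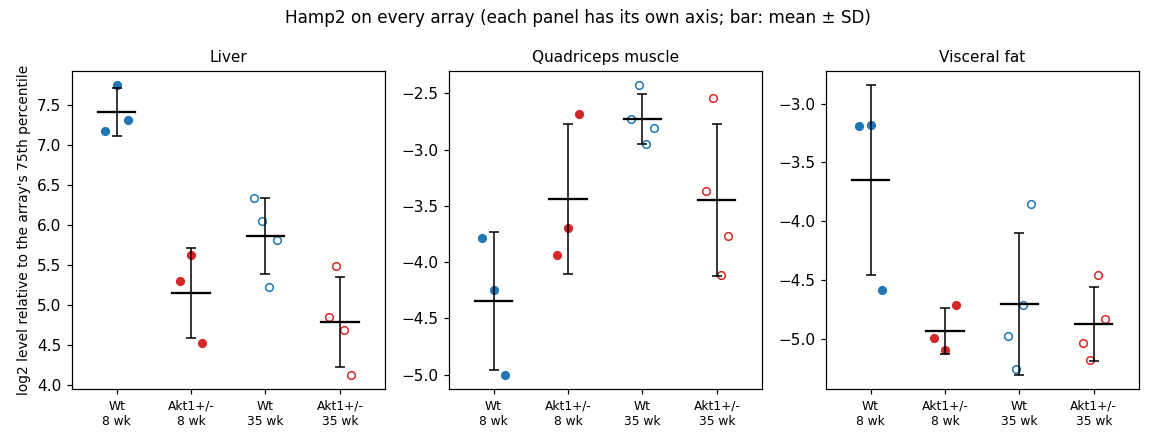
Log2 level of *Hamp2* (log2 intensity relative to the 75th percentile of the array, vertical axis) on each of the 42 arrays, by tissue, genotype and age. Points are arrays and bars are group means with the SD. In liver, the 8-week Wt arrays at 7.17 to 7.74 stand above all other groups, and the muscle and fat arrays lie below −2.42.

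The neighbouring gene *Hamp*, which encodes the hepcidin peptide studied in iron physiology, had another pattern. The 3 younger Wt livers had a log2 level of 6.18, 5.51 and 4.90, and the 4 older ones of 7.30, 6.89, 5.95 and 7.25. The younger *Akt1*+/- livers stood at 4.14, 4.80 and 6.04 and the older ones at 7.03, 6.37, 5.51 and 5.73. The genotypes overlapped at both ages, and the average genotype difference was −0.61. Over the 14 liver arrays the levels of *Hamp* and *Hamp2* had a Pearson correlation of −0.03, given as a description. Whether RNA of one gene also bound the probe of the other was not tested.

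With age, *Hamp2* fell in liver. The log2 difference between 35 and 8 weeks, averaged over both genotypes, was −0.96 (95% confidence interval −1.48 to −0.43, limma, adjusted p = 0.00922), or 0.515 times the younger level. It was −1.55 in Wt livers, where every older array was below every younger one, and −0.37 in *Akt1*+/- livers, where the ages overlapped. The interaction of genotype and age was 1.18 (0.13 to 2.23) and did not pass the threshold (adjusted p = 0.298). *Hamp* rose with age in liver by 1.24 (0.48 to 2.01, adjusted p = 0.0168), a 2.36-fold increase. Its call was lost in a single fit over all 42 arrays (adjusted p = 0.125), while the call of *Hamp2* was kept under every alternative.

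Markers of other cells moved with age in the same livers, where 20.1% of all genes rose and 15% fell. Macrophage markers rose for 3 of 6 genes, with a summed log2 level of 3.57 to 4.01 in Wt and 4.19 to 4.49 in *Akt1*+/- livers at 8 weeks, and of 4.23 to 4.54 and 3.97 to 4.71 at 35 weeks. B lymphocyte markers rose for 4 of 5 genes, from 0.80 to 1.31 in Wt and 1.85 to 2.01 in *Akt1*+/- livers at 8 weeks to 2.00 to 2.47 and 1.49 to 2.75. Of 5 Kupffer cell markers, genes of the resident macrophages of liver, 2 rose and 1 fell, with sums of 6.08 to 7.13 over all livers. At 8 weeks both the macrophage and the B lymphocyte sums were higher in every *Akt1*+/- liver than in every Wt liver. The hepatocyte sum was lower in every *Akt1*+/- liver (10.43 to 10.60) than in every Wt liver (10.69 to 10.76) at 8 weeks, and overlapped at 35 weeks (10.35 to 10.61 against 10.44 to 10.89). All 5 hepatocyte markers had a negative genotype difference, with a median of −0.12, and none of them passed the test for age. The part of these cells in the levels of the hepcidin genes was not tested.

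Outside liver, *Hamp2* was dim but well above background on all 28 arrays. Its mean log2 level was 5.73 ± 1.09 (SD, n = 14) in liver, −3.43 ± 0.77 in muscle and −4.58 ± 0.69 in fat. Mean intensities per group were 15.3 to 61.7 in muscle, 18.2 to 46.6 in fat and 9783 to 48941 in liver. The level in liver was 625 times that in muscle (log2 difference 9.29, limma, adjusted p = 4.56e-30), and that in muscle was above that in fat by 1.05. With normexp and quantile normalization these differences were 7.35 and 0.34. *Hamp* was well above background on only 2 of 14 muscle and 2 of 14 fat arrays. The muscle array with the high hepatocyte sum was one of them, at a log2 level of −1.87, and its *Hamp2* level of −2.69 was the highest of its group.

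In muscle, *Hamp2* rose with age. Its log2 level was −3.78, −4.25 and −5.00 in Wt and −3.94, −3.69 and −2.69 in *Akt1*+/- muscle at 8 weeks, and −2.73, −2.43, −2.95 and −2.81 in Wt against −3.36, −2.54, −4.11 and −3.77 in *Akt1*+/- mice at 35 weeks. All older Wt arrays were above all younger Wt arrays, whereas the ages overlapped in *Akt1*+/- muscle. The age difference was 0.80 (0.20 to 1.40, adjusted p = 0.044), with 1.61 in Wt and −0.01 in *Akt1*+/- muscle, and the interaction of −1.62 (−2.82 to −0.42) did not pass (adjusted p = 0.495). The rise was 0.99 (adjusted p = 0.0178) without the array of the high hepatocyte sum and was no longer called without any one of 10 of the 14 arrays, with the highest adjusted p, 0.108, without Wt replicate 3 at 8 weeks. It was also lost in the median scaling (adjusted p = 0.0533), without the filter on dim probes (0.0748), in the methods' two-way test (0.0711) and with a replicate block (0.0573). Of the cell markers in muscle, 2 of 6 adipocyte and 3 of 6 fibre markers rose with age, beside 16.9% of all genes. Among erythroid markers 2 of 4 fell, beside 14.4% of all genes. The part of these markers in the rise of *Hamp2* was not tested. The genotype difference in muscle was 0.09 (−0.51 to 0.69, adjusted p = 0.874).

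In fat, *Hamp2* differed by −0.73 between genotypes (−1.29 to −0.16), which did not pass the threshold (adjusted p = 0.173). At 8 weeks its log2 level was −3.19, −3.18 and −4.59 in Wt and −4.99, −5.09 and −4.71 in *Akt1*+/- fat, so that the genotypes did not overlap. At 35 weeks it was −4.98, −5.25, −4.71 and −3.86 in Wt and −5.04, −5.18, −4.45 and −4.83 in *Akt1*+/- fat, which overlapped. The Wt array at −4.59 was the only one on the slide of the 8-week *Akt1*+/- arrays, and within that slide the difference was −0.35. Without this array the difference was −0.96 and passed (adjusted p = 0.0429), and the age difference of −0.50 (adjusted p = 0.199) became −0.73 (adjusted p = 0.0386). No Wt array of fat then shared a slide or scan day with an *Akt1*+/- array, so genotype cannot be told apart from these. The hepatocyte sum in fat was lower in every *Akt1*+/- array than in every Wt array, at 6.37 to 6.43 against 6.55 to 6.89 at 8 weeks and 6.34 to 6.59 against 6.77 to 7.05 at 35 weeks. This sum was led by *Cyp2e1*, at a mean log2 level of 6.61 in fat, with *Alb* next at 0.43 and the other markers lower. Of 4 tested hepatocyte markers 1 passed as lower, beside 0.593% of all genes in that direction. The part of these markers in the *Hamp2* level was not tested.

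The age difference of *Hamp2* itself differed between tissues. It was lower in liver than in muscle, with a difference of −1.76 (−2.56 to −0.96, adjusted p = 0.00196) and higher in muscle than in fat by 1.30 (0.50 to 2.10, adjusted p = 0.0212), in 1 fit of all arrays. Over all genes, 9.1% passed the first comparison in the lower direction and 8.64% the second in the higher direction. Between liver and fat none of the 8 genes passed, beside 16.2% of all genes in either direction. An unadjusted p below 0.05 held for 1 of the 8, beside 5772 of 19862 genes. The genotype difference between fat and muscle was −0.82 (−1.62 to −0.02) for *Hamp2* and did not pass (adjusted p = 0.303). None of the 8 passed that comparison, which called 0.74% of all genes.

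Of the iron sensors, neither separated by genotype in liver. The log2 level of *Tfr2*, the hepatocyte receptor, was 6.37, 6.41 and 6.50 in Wt against 6.38, 6.17 and 6.13 in *Akt1*+/- livers at 8 weeks, and 6.35, 6.59, 6.46 and 6.50 in Wt against 6.12, 6.46, 6.36 and 6.29 in *Akt1*+/- mice at 35 weeks. The genotypes overlapped at both ages, with an average difference of −0.18. *Tfr2* was 238 times higher in liver than in fat, a log2 difference of 7.89 that was 6.89 with normexp and quantile normalization. In muscle it was well above background on 3 of 14 arrays and was not tested within that tissue.

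In fat, *Tfr2* varied more than in liver. Its log2 level was −2.67, −1.39 and −1.17 in Wt and −2.40, −2.53 and −2.21 in *Akt1*+/- fat at 8 weeks, and −1.98, −0.80, −1.22 and −1.56 in Wt against −2.26, −0.51, −0.05 and 0.35 in *Akt1*+/- mice at 35 weeks. The lowest older *Akt1*+/- array lay among the younger ones and the other 3 stood above all younger *Akt1*+/- arrays. The age difference of 1.06 (0.23 to 1.89) did not pass (adjusted p = 0.0722), and was 1.33 (adjusted p = 0.0065) without that lowest array.

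*Hfe*, which encodes an MHC class I-like protein that binds transferrin receptor 1, rose with age in liver on its brighter probe. The log2 level of this probe, at chr13:23711518-23711577 of mm8, was 2.91, 2.88 and 2.94 in Wt and 2.94, 3.04 and 2.90 in *Akt1*+/- livers at 8 weeks. At 35 weeks it was 3.20, 3.42, 3.23 and 3.30 in Wt against 3.25, 3.36, 3.22 and 3.05 in *Akt1*+/- mice. Every older array was above every younger one, and the difference was 0.32 (0.18 to 0.46, adjusted p = 0.00277). The dimmer probe, at chr13:23710064-23710123, differed in the other direction, by −0.24 in Wt and −0.16 in *Akt1*+/- livers. With the mean of both probes the difference was 0.06 (adjusted p = 0.465), in the median scaling 0.12 (adjusted p = 0.174), and in a single fit of all arrays its adjusted p was 0.145.

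In muscle the brighter *Hfe* probe rose by 0.27 with age (0.09 to 0.46, adjusted p = 0.0294). Its log2 level was 1.85, 1.52 and 1.75 in Wt and 1.95, 2.12 and 1.98 in *Akt1*+/- muscle at 8 weeks, and 2.23, 2.30, 1.95 and 2.18 in Wt against 2.17, 2.33, 1.96 and 1.93 in *Akt1*+/- mice at 35 weeks. At 8 weeks every *Akt1*+/- array was above every Wt array, by 0.31 on the brighter probe and 0.36 on the dimmer one. The genotypes overlapped at 35 weeks on both probes. Only the Wt arrays were separated by age. The call was lost under 5 other settings, with adjusted p values from 0.0511 to 0.248, and without any one of 7 arrays, among them that of the high hepatocyte sum (0.0583).

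In fat the *Hfe* levels were spread widely. They were 2.22, 3.21 and 3.26 in Wt and 2.10, 2.05 and 2.03 in *Akt1*+/- fat at 8 weeks, and 1.80, 2.64, 1.46 and 2.34 in Wt against 1.45, 2.60, 2.53 and 2.91 in *Akt1*+/- mice at 35 weeks. The genotypes were apart at 8 weeks and overlapped at 35 weeks. The average genotype difference was −0.26 (adjusted p = 0.603), and the interaction of 1.15 missed the threshold (adjusted p = 0.238) but passed it in a single fit over all 42 arrays (adjusted p = 0.0444).

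Transferrin had the smallest spread of the 8 genes in liver. All 14 livers had a log2 level of *Trf* from 8.54 to 8.91, with a genotype difference of 0.01 and an age difference of −0.02. The mean level was 8.71 ± 0.10 (SD, n = 14) in liver, 6.64 ± 0.16 in fat and 1.24 ± 0.54 in muscle, so that liver was 181 times above muscle. In muscle the level was 1.03, 0.39 and 0.58 in Wt and 1.59, 0.48 and 2.08 in *Akt1*+/- mice at 8 weeks, and 1.07, 1.46, 1.31 and 1.09 in Wt against 2.23, 1.48, 1.47 and 1.08 in *Akt1*+/- mice at 35 weeks. The genotypes overlapped at both ages, and the difference of 0.53 (0.01 to 1.05) did not pass (adjusted p = 0.266). The highest 8-week value, 2.08, was that of the array with the high hepatocyte sum.

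The receptor that takes up transferrin, *Tfrc*, was lowest in fat, at a mean log2 level of −2.42 ± 0.70, against −0.40 ± 0.43 in liver and 0.10 ± 0.81 in muscle. In 8-week muscle it was −0.14, −0.13 and 0.26 in Wt and 1.02, 1.28 and 0.59 in *Akt1*+/- mice, without overlap. At 35 weeks it was −0.28, 0.78, 0.65 and −0.85 in Wt and 0.69, 0.01, −1.49 and −1.03 in *Akt1*+/- muscle, with wide overlap. On the 8-week muscle arrays the adipocyte sum was also higher in every *Akt1*+/- array (7.45 to 8.14 against 7.03 to 7.11) and the erythroid sum lower in every one (6.62 to 6.85 against 7.16 to 7.67). Their part in the *Tfrc* level was not tested. The genotype difference over both ages was 0.22 (adjusted p = 0.76), and that in fat was 0.59 (adjusted p = 0.366). Of the 8-week arrays, 3 Wt and 1 *Akt1*+/- muscle shared a slide, and 1 Wt and 3 *Akt1*+/- fat shared another. Within them *Tfrc* was higher in *Akt1*+/- mice by 1.02 and 0.91.

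In liver, *Tfrc* was −0.53, −0.06 and −0.47 in Wt and 0.05, 0.30 and −0.92 in *Akt1*+/- mice at 8 weeks. At 35 weeks it was −0.87, −0.54, −0.35 and −0.64 in Wt against −0.08, 0.03, −0.31 and −1.23 in *Akt1*+/- mice. The genotypes overlapped, with an average difference of 0.18. Muscle was above liver by 0.53 (adjusted p = 0.0367), a call that was lost with the slide as a random block (adjusted p = 0.0618) or without any one of 11 of the 42 arrays. Muscle was 5.95 times above fat, a log2 difference of 2.57 that was 1.90 with normexp and quantile normalization.

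Ferroportin RNA was also lower in *Akt1*+/- liver. The log2 level of *Slc40a1* was 4.72, 4.69 and 4.55 in Wt and 4.05, 3.87 and 4.07 in *Akt1*+/- livers at 8 weeks. At 35 weeks it was 4.37, 4.49, 4.11 and 4.41 in Wt and 4.16, 4.39, 3.64 and 3.74 in *Akt1*+/- livers. As with *Hamp2*, the genotypes did not overlap at 8 weeks and overlapped at 35 weeks. The *Akt1*+/- level was 0.633 times the Wt level at 8 weeks and 0.776 times at 35 weeks, and the average difference was −0.51. *Hamp2* and *Slc40a1* were the 2 of 8 genes below the adjusted threshold of 0.05 in this contrast, in which 2.52% of 17561 genes were below it in the lower direction, and nothing is read from that count. The age difference in liver was −0.16 and missed the threshold, but it was −0.36 in the median scaling (adjusted p = 0.0199).

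**Figure D2:**
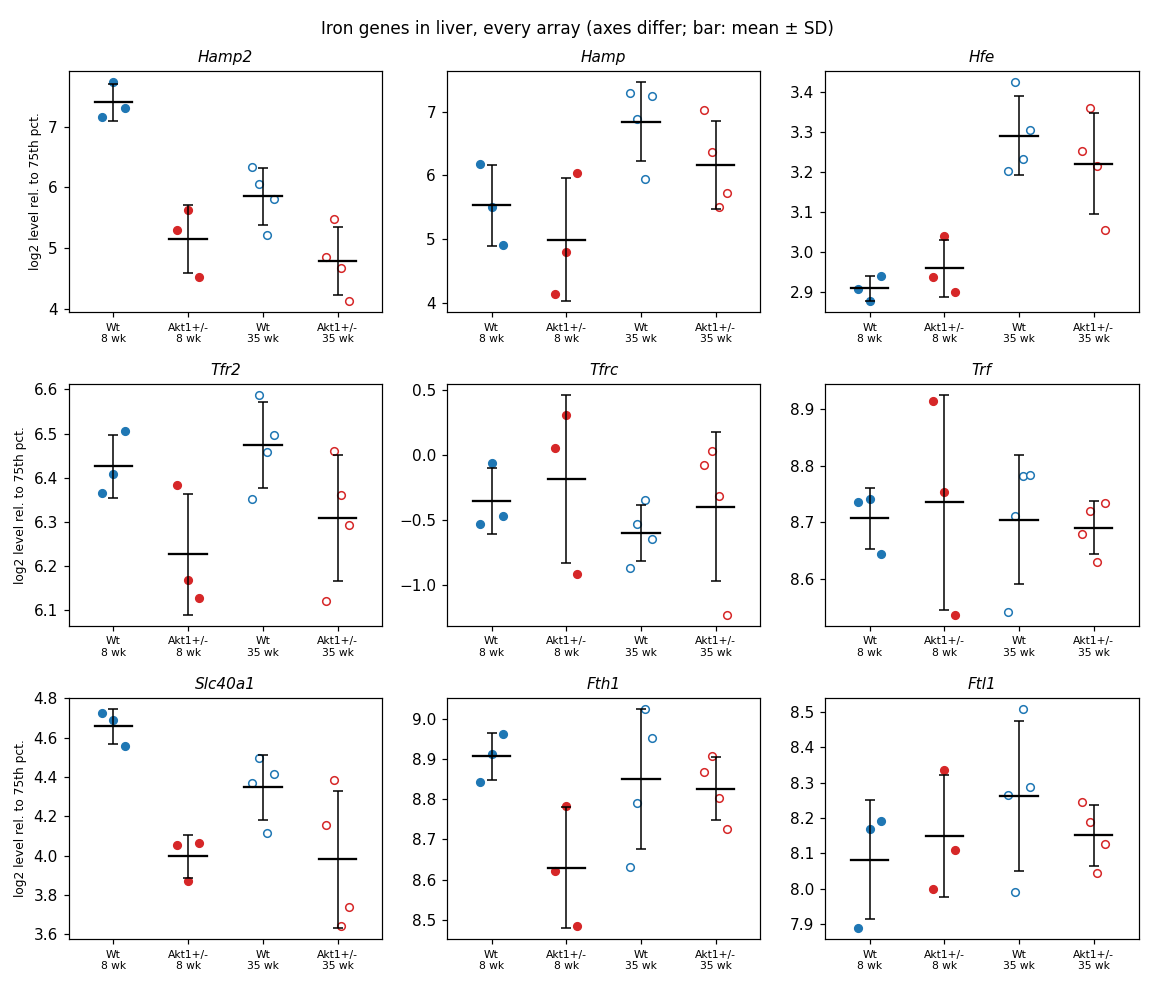
Log2 level of the 8 genes and *Hamp* in liver (log2 intensity relative to the 75th percentile of the array), by genotype and age, with 1 point per array and bars for group means with the SD. *Hamp2*, *Slc40a1* and *Fth1* at 8 weeks are lower in every *Akt1*+/- liver than in every Wt liver, and *Trf* stays between 8.54 and 8.91. How many of all genes were separated in this way was not counted.

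In fat, *Slc40a1* fell with age. Its log2 level was 1.82, 1.56 and 1.63 in Wt and 2.03, 1.59 and 1.65 in *Akt1*+/- fat at 8 weeks, and 1.19, 0.87, 0.87 and 0.66 in Wt against 1.76, 1.11, 1.02 and 1.68 in *Akt1*+/- mice at 35 weeks. All older Wt arrays were below all younger ones, while the *Akt1*+/- arrays overlapped. The difference was −0.57 (−0.87 to −0.27, adjusted p = 0.0145), or 0.674 times the younger level, and was called under every alternative. Macrophage markers, genes of cells that export much iron through ferroportin, fell for 2 of 6 genes in fat, beside 9.31% of all genes. Their summed log2 level was 4.81 to 5.15 in Wt and 5.33 to 5.51 in *Akt1*+/- fat at 8 weeks and 4.87 to 4.97 and 4.99 to 5.08 at 35 weeks. Their part in the level of *Slc40a1* was not tested.

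In muscle, *Slc40a1* was 2.86, 2.94 and 3.38 in Wt and 3.29, 2.99 and 4.05 in *Akt1*+/- mice at 8 weeks, and 3.64, 3.17, 2.73 and 3.46 in Wt against 3.58, 3.10, 3.41 and 3.51 in *Akt1*+/- mice at 35 weeks. The ages and genotypes overlapped, with an age difference of 0.07. The age difference was higher in muscle than in fat by 0.64 (0.19 to 1.09, adjusted p = 0.0417). This call was lost without the filter on dim probes (adjusted p = 0.0579), with the slide as a random block (adjusted p = 0.0912) and on leaving out any one of 16 of the 42 arrays. The genotype difference was 0.27 in muscle (adjusted p = 0.441) and 0.29 in fat (adjusted p = 0.273). By tissue, *Slc40a1* was 7.04 times higher in liver and 3.63 times higher in muscle than in fat.

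Ferritin heavy chain RNA was bright in all tissues. The mean log2 level of *Fth1* was 8.81 ± 0.15 (SD, n = 14) in liver, 8.90 ± 0.13 in muscle and 8.24 ± 0.15 in fat. Liver and muscle did not differ beyond their spread (−0.08, adjusted p = 0.09). Liver was above fat by 0.56 and muscle above fat by 0.65, but with normexp and quantile normalization both differences turned, to −0.22 and −0.24.

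With age, *Fth1* rose in muscle by 0.21 (0.09 to 0.32, adjusted p = 0.0103), but the difference was −0.040 with normexp and quantile normalization. Its log2 level was 8.84, 8.80 and 8.78 in Wt and 8.84, 8.74 and 8.70 in *Akt1*+/- muscle at 8 weeks, and 9.17, 9.02, 8.91 and 9.02 in Wt against 8.96, 8.97, 8.95 and 8.90 in *Akt1*+/- mice at 35 weeks. Every older array was above every younger one. In liver it was 8.84, 8.91 and 8.96 in Wt and 8.62, 8.78 and 8.48 in *Akt1*+/- mice at 8 weeks, without overlap, and 8.63, 8.79, 9.03 and 8.95 in Wt against 8.87, 8.91, 8.80 and 8.73 in *Akt1*+/- mice at 35 weeks, with overlap. The genotype difference in liver was −0.28 at 8 weeks and −0.15 over both ages. In fat it was 8.06, 8.36 and 8.38 in Wt and 8.25, 8.06 and 8.15 in *Akt1*+/- mice at 8 weeks, and 8.39, 8.42, 8.44 and 8.32 in Wt against 8.01, 8.24, 8.08 and 8.25 in *Akt1*+/- mice at 35 weeks. Every older *Akt1*+/- array was below every older Wt array, and the difference over both ages was −0.18 (−0.34 to −0.03), which did not pass (adjusted p = 0.202).

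The light chain gene, *Ftl1*, rose with age in fat. Its log2 level was 5.95, 5.94 and 5.95 in Wt and 5.93, 5.94 and 6.16 in *Akt1*+/- fat at 8 weeks, and 6.38, 6.18, 6.29 and 6.21 in Wt against 6.25, 6.32, 6.30 and 6.46 in *Akt1*+/- mice at 35 weeks. Every older array was above every younger one. The difference was 0.32 (0.19 to 0.46, adjusted p = 0.00473) and was called under every alternative. *Ftl1* ran from 7.89 to 8.51 in liver and from 4.14 to 4.66 in muscle, with genotype differences of −0.02 and 0.00, and liver was 13.5 times above muscle. The mouse has near-identical copies of this gene, and how far they share the probe was not tested.

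**Figure D3:**
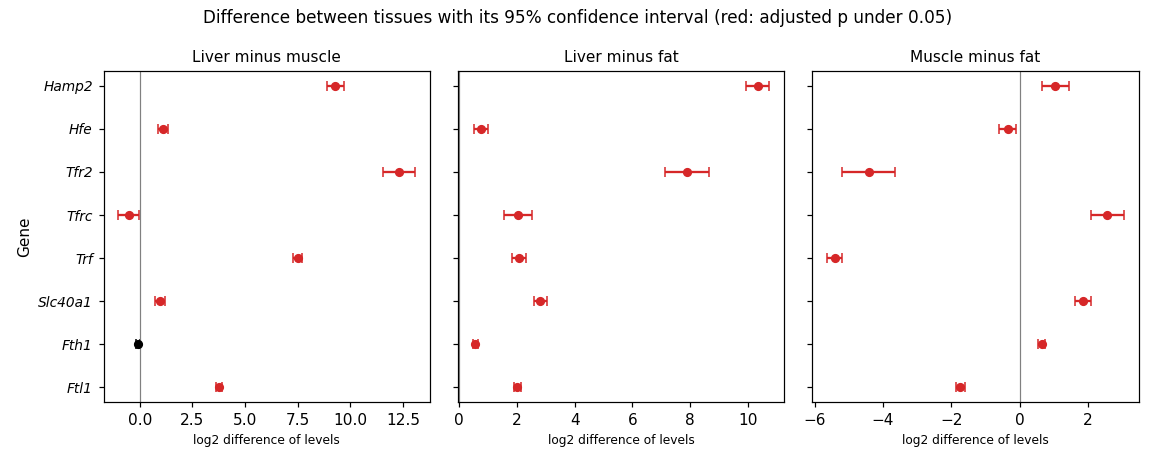
Log2 difference of each gene between tissues, liver minus muscle, liver minus fat and muscle minus fat (horizontal axis, points with 95% confidence intervals, red where the adjusted p was under 0.05). *Hamp2*, *Tfr2* and *Trf* have the widest differences, and those of *Fth1* against fat, 0.56 and 0.65, turned with normexp and quantile normalization.

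Between tissues, most of the genes differed, as did most genes of the array. Liver was above muscle for 6 genes and below it for *Tfrc*, beside 40.5% of all genes higher and 45.2% lower. Liver was above fat for all 8, beside 44.2%. Muscle was above fat for *Tfrc*, *Slc40a1*, *Hamp2* and *Fth1* and below it for *Trf*, *Tfr2*, *Ftl1* and *Hfe*, beside 43.9 and 43.7%. In order of level, *Hamp2* and *Slc40a1* ran from liver through muscle to fat and *Trf*, *Tfr2*, *Ftl1* and *Hfe* from liver through fat to muscle, where *Tfr2* was mostly at background. The *Hfe* difference between fat and muscle of 0.35 (adjusted p = 0.00728) was lost in the median scaling (adjusted p = 0.184).

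With age in liver, *Hfe* was the 1 gene of 8 that rose, beside 20.1% of all genes, and *Hamp2* the 1 that fell, beside 15%. In muscle, 3 of 7 tested genes rose and 0 fell, beside 16.9 and 14.4%. In fat, *Ftl1* rose and *Slc40a1* fell, beside 9.95 and 9.31%. The members had a median age difference of 0.02 for liver, 0.21 for muscle and 0.06 for fat, against 0.02, 0.01 and 0.01 over all genes tested. No interaction of genotype and age passed among the members in liver, muscle or fat by limma, beside 0.564, 0 and 1.64% of all genes. At an unadjusted p below 0.05 the interaction held for 1 member in liver, 2 in muscle and 2 in fat. Over all genes tested it held at that level for 2445 of 17561, 1440 of 17139 and 3695 of 18366.

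**Figure D4:**
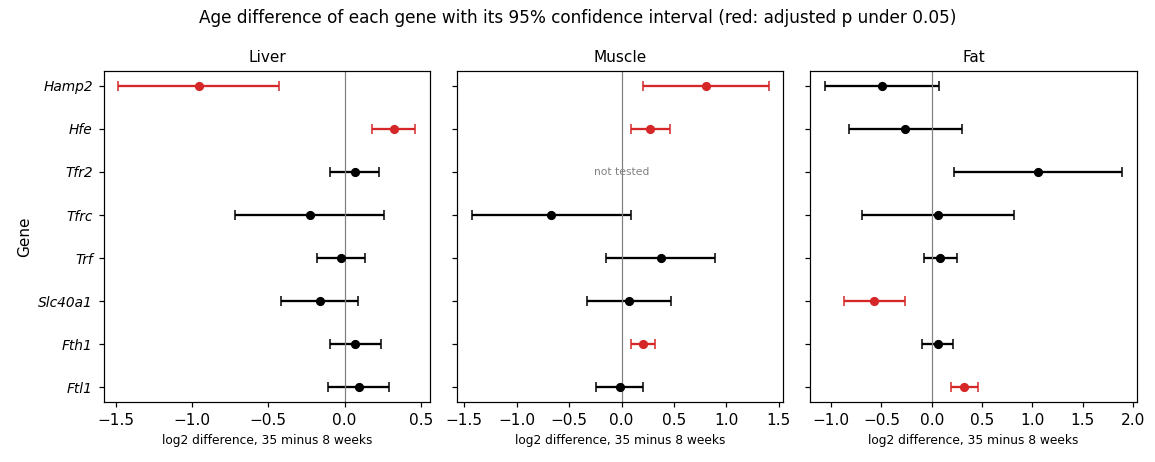
Log2 difference between 35 and 8 weeks for each gene in liver, muscle and fat (horizontal axis, averaged over both genotypes, points with 95% confidence intervals, red where the adjusted p was under 0.05). *Hamp2* lies at −0.96 in liver and 0.80 in muscle, and *Slc40a1* at −0.57 in fat. The value of *Fth1* in muscle, 0.21, was −0.040 with normexp and quantile normalization.

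For genotype, none of 7 members passed in muscle by limma, where 0% of 17139 genes were called and 3170 had an unadjusted p below 0.05. The methods' two-way test, run here with adjusted p values under 0.05, called 1 gene, while the study used p below 0.01. By limma *Trf* was the 1 member at an unadjusted p below 0.05. None of 8 passed in fat, where 0.822% of 18366 genes were called and 3532 had an unadjusted p below 0.05. There *Hamp2* and *Fth1* were the 2 members at an unadjusted p below 0.05. The median genotype difference of the members was 0.12 in muscle and 0.07 in fat, against −0.00 and −0.01 over all genes.

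**Figure D5:**
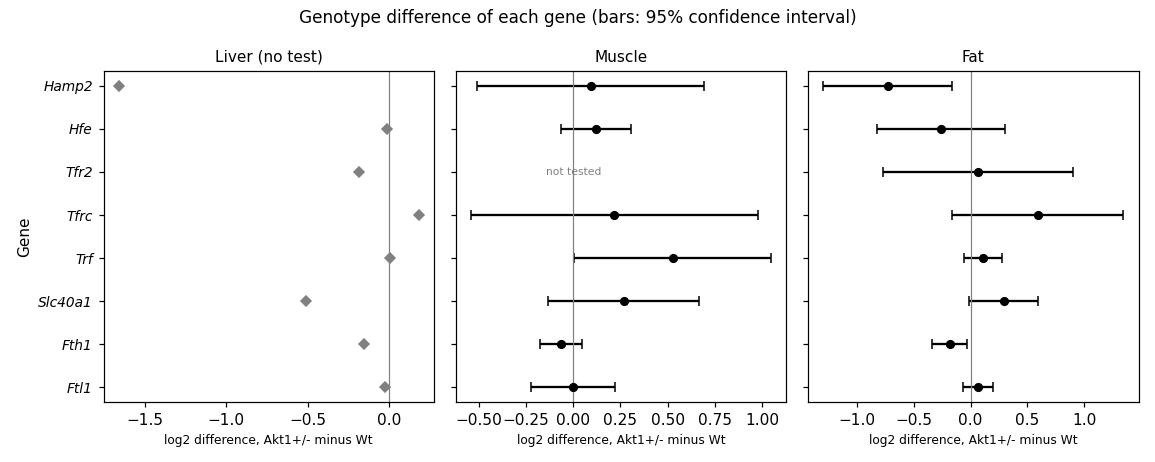
Log2 difference between *Akt1*+/- and Wt for each gene in liver, muscle and fat (horizontal axis, averaged over both ages, points with 95% confidence intervals except in liver, which has points alone). *Hamp2* at −1.66 and *Slc40a1* at −0.51 in liver are a description, since this contrast chose the genes. In muscle and fat no gene passed the adjusted threshold.

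Of the known regulators of hepcidin, *Hjv*, the BMP co-receptor hemojuvelin, had genotype and age differences of 0.14 and −0.19 in liver. *Bmp6*, the ligand that iron loading induces, had average differences of 0.01 and 0.16 on its brighter probe. Its genotype difference was 0.33 at 8 weeks, where every *Akt1*+/- liver was higher, and −0.31 at 35 weeks, with overlap. With age it differed by 0.48 in Wt and −0.16 in *Akt1*+/- livers, and the interaction passed in none of 24 alternatives. Its dimmer probe stood at −4.44 in Wt and −3.95 in *Akt1*+/- livers at 8 weeks, and at −4.05 and −3.93 at 35 weeks. *Tmprss6*, the protease that cleaves hemojuvelin, had differences of −0.16 and −0.03. None of these 3 passed the age test in liver. In fat *Hjv* rose with age by 1.0 on the log2 scale (adjusted p = 0.024), at a mean log2 level of −3.99 ± 0.71 (SD, n = 14), and the call was lost in 4 of 24 alternatives, with normexp and quantile normalization (0.25, adjusted p = 0.0515) and without 8-week Wt replicate 1, *Akt1*+/- replicate 1 or *Akt1*+/- replicate 2 (adjusted p up to 0.0645).

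Of 94 other genes of iron biology on the array, grouped by role, 90 were tested in liver. With age 11 rose and 20 fell, beside 20.1% of all genes higher and 15% lower, and with median scaling 7 rose and 42 fell. Among the 23 hepcidin regulators *Hamp* rose and 3 fell, among them *Acvr1*, a type I BMP receptor, by −1.01 (adjusted p = 5.13e-05). Of 17 genes of iron uptake, export and plasma carriage 4 rose. Among them were *Steap1*, of the STEAP family, at 1.22 (limma, adjusted p = 0.000242, and 0.58 with normexp and quantile normalization) and *Slc22a17*, a lipocalin receptor, at 0.97 (adjusted p = 0.00171). Another 4 fell, with *Heph*, a ferroxidase that acts beside ferroportin, at −0.93 (adjusted p = 3.11e-05) and *Lrp1*, a receptor for haem-bound hemopexin, at −0.48 (adjusted p = 0.000533). Of the 9 genes listed for cytosolic iron sensing and ferritin turnover, 2 rose and 2 fell. The rises were *Ftmt*, which encodes mitochondrial ferritin, by 1.43 (adjusted p = 0.0021, and 0.41 with normexp and quantile normalization) and the ferritin-like *Fthl17e* by 1.02 (adjusted p = 0.000161). The second has near-identical copies in the genome.

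The haem genes of liver had 5 falls and 0 rises with age among 17, beside 15% of all genes lower and 20.1% higher. *Fech*, which inserts iron into haem, fell by 0.64 on the log2 scale (adjusted p = 0.000344), and *Blvrb*, a biliverdin reductase, by 1.08 (adjusted p = 0.0376). The call of *Blvrb* was lost in 10 of 24 alternatives, arrays left out among them, and that of *Lrp1* in 1. Of 24 genes of mitochondrial iron and iron-sulphur cluster assembly, 4 rose and 6 fell, beside the same shares of all genes. The median age difference over the 90 genes was −0.05, against 0.02 over all genes. For genotype, as a description, 2 were above the threshold's higher side, *Slc22a17* at 0.88 and *Cd163*, the haemoglobin scavenger receptor of macrophages, at 0.69, beside 3.74% of all genes. On the lower side were 3, *Cisd1* at −0.37, *Iscu* at −0.32 and *Pcbp2* at −0.28, which act in mitochondrial and cytosolic iron delivery, beside 2.52% of all genes. Of 24 alternatives, 17 left *Cisd1* short of the threshold, 11 *Iscu*, 7 *Pcbp2* and 3 *Slc22a17*. The count of 2 and 3 became 2 and 20 with median scaling, 2 and 8 in the single fit of 42 arrays, 2 and 0 with normexp and quantile normalization, and 1 and 0 under a random block for slide.

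In muscle, 90 of these genes were tested, and with age 9 rose and 12 fell, beside 16.9% of all genes higher and 14.4% lower. The list of mitochondrial iron and iron-sulphur cluster assembly had 6 rises and 1 fall among 24. Among the rises were *Ciapin1* at 0.63 (limma, adjusted p = 0.0262), *Nubp2* at 0.42 (adjusted p = 0.00029) and *Bola3* at 0.34 (adjusted p = 0.00625), all of which act in iron-sulphur cluster assembly. The mitochondrial iron carrier *Slc25a28* rose by 0.39 (adjusted p = 0.00451). *Fthl17e* rose by 0.79 (adjusted p = 0.000227). The haem list had 1 rise and 5 falls among 17. *Alas2*, the erythroid enzyme that starts haem synthesis, differed by −0.72 (adjusted p = 0.0243) and *Blvrb* by −1.07 (adjusted p = 0.0298), and 2 of 4 erythroid markers fell as well, with sums of 6.62 to 7.67 at 8 weeks and 5.72 to 7.40 at 35 weeks. The part of blood cells in these levels was not tested. *Cybrd1*, a ferric reductase, fell by 0.72 (adjusted p = 0.00827), *Heph* by 0.66 (adjusted p = 0.0361) and *Bdh2*, which makes a siderophore-like molecule, by 0.52 (adjusted p = 0.00326). Alternatives that lost a call numbered 9 of 24 for *Heph*, 6 for *Blvrb*, 3 for *Ciapin1*, 2 for *Alas2* and 1 each for *Cybrd1* and *Bdh2*. None of the 90 passed for genotype.

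In fat, 89 of these genes were tested, and with age 7 rose and 9 fell, beside 9.95% of all genes higher and 9.31% lower. Of the 9 genes listed for cytosolic iron sensing and ferritin turnover, 4 fell and 0 rose. Among the falls were *Aco1*, the iron regulatory protein that is also an aconitase, at −0.43 (adjusted p = 0.0403) and *Ncoa4*, which delivers ferritin to lysosomes, at −0.38 (adjusted p = 0.0443). The call of *Aco1* was lost in 13 of 24 alternatives and that of *Ncoa4* in 14. *Scara5*, a receptor for ferritin, fell by 0.84 (adjusted p = 0.00322), *Acvr1* by 0.68 (adjusted p = 0.000598) and *Fech* by 0.53 (adjusted p = 0.00757). The list of mitochondrial iron and iron-sulphur cluster assembly had 4 rises and 0 falls among 24. These were *Fdx1* at 0.62 (limma, adjusted p = 0.031), *Bola3* at 0.61 (adjusted p = 0.00315), *Lyrm4* at 0.42 (adjusted p = 0.00333) and *Cisd2* at 0.31 (adjusted p = 0.014). The call of *Fdx1* was lost in 6 alternatives and that of *Cisd2* in 1. For genotype, with 0.822% of all genes called, 1 gene passed, *Slc11a1*, a metal transporter of phagocytes, at 0.56 (adjusted p = 0.0354, lost in 9 of 24 alternatives), while the macrophage sum was higher in every *Akt1*+/- than in every Wt fat at both ages. *Ftmt* passed for the interaction in fat, at 1.02 (adjusted p = 0.0222), and was lost in 3 of 23 alternatives, with 0.22 under normexp and quantile normalization.

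Over the 14 liver arrays, 17 genes had a Pearson correlation above 0.9 with *Hamp2*. Among the 5 highest were *Sult1d1* at 0.928, *Macrod1* at 0.925, *Tbpl1* at 0.922 and *Hyi* at 0.921. After the mean of each group was taken off, the correlations of these 4 were 0.636, 0.562, 0.693 and 0.614. Among the members the correlation of levels was 0.857 for *Slc40a1*, 0.464 for *Tfr2*, 0.387 for *Fth1* and 0.201 for *Tfrc*. It was 0.035 for *Trf*, −0.123 for *Ftl1* and −0.295 for *Hfe*. After the group means were taken off it was 0.649 for *Tfrc*, 0.615 for *Hfe*, 0.535 for *Slc40a1* and 0.218 for *Tfr2*. It was then 0.111 for *Fth1*, 0.070 for *Trf* and 0.009 for *Ftl1*, so that the order of the members changed. These are descriptions over arrays that share their groups, slides and scan days.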

How the data were processed

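RNA of 42 samples was hybridised singly to Agilent one-colour arrays. Per the labels, Agilent Feature Extraction 9.1 made the scanner files, while the file headers name a later version. The deposited intensity of each spot has its background taken off and is not adjusted between arrays. A table of log2 values that the authors deposited served as an alternative. Here the log2 of that intensity was set relative to each array's 75th percentile. Probes had to pass the scanner's background test on 3 or more arrays of a group, and the brightest such probe stood for a gene. Limma 3.58.1 (R 4.3.3) was fitted per tissue with 1 mean per group, and over all 42 arrays to compare tissues, with Benjamini-Hochberg adjusted p values over all genes tested and a threshold of 0.05. Precision is limited by how many arrays there are. The fit was tested on simulated data. Python 3.11.15 with pandas 2.3.3, numpy 2.4.6 and matplotlib 3.10.9 handled tables and figures. Coordinates of probes are on mm8, as the array gives them, and RefSeq sequences are of GRCm38.p6.

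The members and the lists were chosen with earlier results of these data known. Named were all members, the pathway genes past the threshold (at most the 5 largest rises and 5 largest falls per tissue and contrast), *Hamp*, *Bmp6*, *Hjv*, *Tmprss6*, *Akt1* and the 5 genes most like *Hamp2* in liver, of which 1 is not reported here. Alternatives were median scaling, normexp (offset 50) followed by quantile normalization, the authors' table, other filters and probe rules, the methods' two-way test, a random block for slide, a replicate block, a single model of all arrays and each array left out.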

Additional observations from a re-analysis of the deposited data

Results flagged for a closer look

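The age difference (35 against 8 weeks) of *Hamp2* differed between tissues, by −1.76 on the log2 scale for liver minus muscle and by 1.30 for muscle minus fat, in a test of the difference itself over all 42 arrays. The first was called under all alternatives run. The second was lost with normexp and quantile normalization (0.50, adjusted p = 0.102) and without Wt muscle replicate 3 at 8 weeks. The age difference of *Slc40a1* was higher in muscle than in fat by 0.64, with the call lost under the settings given above. In each tissue the ages were scanned on different days, so age and scan day cannot be told apart in these comparisons. In 48 tests by Dixon's criterion, 1 for each of the 8 genes in each 35-week group of 4 arrays, no array stood out from its group, and chance would flag about 1 in 20.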

How the results depend on the processing

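In this section all genotype values and counts of the members in liver are a description, since that contrast chose the genes. The genotype difference of *Hamp2* in liver ran from −1.79 to −1.40 under the alternatives run. Its age difference in liver ran from −1.15 to −0.84. Members below the genotype threshold in liver numbered 2, against 1 with normexp and quantile normalization, without a filter on dim probes and under a random block for slide, and 4 with median scaling. For age in liver, 2 became 5 with normexp and quantile normalization, and 1 with the mean of all probes or a single fit of 42 arrays. For age in muscle, 3 became 1 with normexp and quantile normalization, by median scaling and without the filter. The interaction in fat went from 0 to 1, *Hfe*, in a single fit of 42 arrays. Age differences between tissues went from 2 to 6 with normexp and quantile normalization, to 4 with median scaling and to 1 without the filter or under a random block for slide. *Fth1* turned with normexp and quantile normalization for age in muscle (−0.040), liver minus fat (−0.22), muscle minus fat (−0.24) and the age difference of liver minus muscle (0.39). The cause was not tested.

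On leaving out each array in turn, the counts ranged from 1 to 2 for genotype in liver, 2 to 2 for age in liver, 1 to 3 for age in muscle, 2 to 3 for age in fat, 0 to 1 for genotype in fat and 1 to 4 for age differences between tissues. Liver against muscle ranged from 6 to 8, and liver or muscle against fat stayed at 8. With the replicate block the counts were 2 for genotype in liver and 2 for age in each tissue. Same-numbered genotypes had correlations of their deviations of −0.195 to 0.073 at 8 weeks, with 0 of 9 pairs above 0.1, and of 0.105 to 0.526 at 35 weeks, with 12 of 12 above it. Since the comparisons use both ages, the numbers were not taken as pairs. Median scaling moved the median age difference of all genes in liver from 0.02 to −0.18 and the genotype median to −0.11, with 492 genes higher and 2643 lower by genotype, against 657 and 443. Of the pathway genes, age in liver called 49 (7 higher, 42 lower) with median scaling against 31, age in fat 27 with normexp and quantile normalization and 25 in a single fit against 16, genotype in fat from 0 to 5 against 1, and genotype in muscle up to 2 against 0. Dim probes such as *Hamp2* in muscle and fat are nearest to background.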
